A study of Homo sapiens with 42 samples.

Results

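Transcript levels of 10 genes of the extrinsic cell death pathway were followed in 5 human cell lines of B-cell acute lymphoblastic leukaemia, or B-ALL: the receptors TNFRSF25, TNFRSF12A, TNFRSF10A, TNFRSF10B, FAS and TNFRSF1A, the adaptor FADD, the initiator caspases CASP8 and CASP10, and their inhibitor CFLAR. The genes were picked by symbol for their roles and make up 10 of the 57820 genes in the tables. Earlier results of these data were known when they were picked, so member counts set beside the share of all genes are a description. Bulk RNA sequencing covered 42 samples in which NSD2, a histone H3 lysine 36 methyltransferase, had been overexpressed or knocked down. The overexpression lines, Reh (2 replicates per arm) and 697 (3 per arm), had an arm with empty vector, called EV, an arm given wild-type NSD2, called WT, and an arm given the mutant E1099K, called EK. The knockdown lines, RS411 (the line RS4;11), RCH (the line RCH-ACV) and SEM, had 3 replicates each of a control hairpin without target, called NT, of the NSD2 hairpin sh2 and of sh5. No text beyond the sample titles describes sh5. The cells were grown in RPMI1640 medium, with no drug or death ligand named in the labels. The sources used here do not say whether an arm is 1 clone or a pool of transduced cells.

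Death receptors are members of the tumour necrosis factor (TNF) receptor superfamily whose cytoplasmic part holds a death domain. When a ligand clusters FAS or the TRAIL receptors TNFRSF10A and TNFRSF10B, the adaptor FADD is recruited and brings in the procaspases CASP8 and CASP10, which cleave and activate the executioner caspases. CFLAR encodes c-FLIP, a relative of caspase-8 that competes for the same complex, and its level is known to influence how readily lymphoid cells die after receptor ligation. TNFRSF1A, the TNF receptor, and TNFRSF25, known as DR3 and best studied in T cells, first recruit TRADD and can signal to NF-kB or to death. TNFRSF12A, known as Fn14, binds TWEAK and has no death domain of its own.

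Each library held between 21941718 and 67796769 reads on genes. Levels are given as CPM, the reads of a gene per 1000000 reads of its library. Counts were tested with edgeR's quasi-likelihood test and the 697 values with limma, and a gene was called where its Benjamini-Hochberg adjusted p, taken over every gene tested, was under 0.05. Log2 fold changes carry their standard error (SE). The labels do not state whether replicates came from separate cultures, and each p therefore measures only how far these samples spread, which may be technical. NSD2 checked the labels: it was lower in all 18 hairpin libraries than in the NT libraries of their line, from 345.1 CPM to 171.2 with sh2 and 141.1 with sh5 in SEM, where both differences passed the test, while the log2 fold changes of -0.71 (sh2) and -0.83 (sh5) in RS411 and -0.77 and -0.80 in RCH did not pass it. Over the knockdown lines fitted together, the mean log2 fold change of NSD2 was -0.81 ± 0.105 for sh2 and -0.96 ± 0.105 for sh5. Both means passed the test (adjusted p = 1.03e-05 and 3.93e-06, edgeR), though they include SEM. The test of a difference between these lines did not pass for either hairpin (adjusted p of 0.682 and 0.679, edgeR). NSD2 was higher by 1.55 (WT) and 1.54 (EK) in Reh and by 3.26 and 3.14 in 697. Of 10 B-lineage marker genes, between 8 and 10 were at 1 CPM or more in every line, and erythroid markers stayed at or under 0.114 CPM.

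TNFRSF25, TNFRSF1A and CFLAR are shown with the 250 bases upstream of their annotated start, because they hold the largest fold change (TNFRSF25), the line difference that passed a test (TNFRSF1A) and the call that separated the hairpins (CFLAR). The sequences are from RefSeq on GRCh38.p14, 5′ to 3′ on the gene's strand, and capitals mark motif matches.
TNFRSF25: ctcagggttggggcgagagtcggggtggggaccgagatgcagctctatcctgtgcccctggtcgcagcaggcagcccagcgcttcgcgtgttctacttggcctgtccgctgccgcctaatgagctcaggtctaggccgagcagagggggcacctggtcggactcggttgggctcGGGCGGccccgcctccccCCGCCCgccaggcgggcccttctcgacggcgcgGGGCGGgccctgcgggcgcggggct
TNFRSF1A: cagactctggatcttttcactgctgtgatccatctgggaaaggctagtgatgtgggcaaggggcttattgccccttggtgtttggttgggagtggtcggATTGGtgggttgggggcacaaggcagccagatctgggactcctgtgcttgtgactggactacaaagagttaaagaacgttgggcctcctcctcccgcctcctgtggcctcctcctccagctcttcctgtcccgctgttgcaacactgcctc
CFLAR: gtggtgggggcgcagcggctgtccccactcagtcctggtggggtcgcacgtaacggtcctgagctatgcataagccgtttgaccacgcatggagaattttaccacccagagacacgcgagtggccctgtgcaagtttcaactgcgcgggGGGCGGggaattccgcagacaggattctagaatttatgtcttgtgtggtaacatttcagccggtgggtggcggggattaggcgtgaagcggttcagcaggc
The TNFRSF25 window lies at chr1:6466174-6466423 on the minus strand, upstream of the first exon, with 73.6% G+C and 26 CpG dinucleotides. The TNFRSF1A window, at chr12:6342077-6342326 on the minus strand, has 56.8% G+C and 4 CpG dinucleotides. The CFLAR window, at chr2:201118466-201118715 on the plus strand, has 58.8% G+C and 17 CpG dinucleotides. Each was searched on both strands for TATAA (the TATA box), CCAAT (the box of that name), GGGCGG (the GC box), TGANTCA (AP-1), CACGTG (the E-box), TGACGTCA (CRE) and CCGGAAG (ETS), none of which contains another. The TNFRSF25 window held GGGCGG at 3 places and the CFLAR window at 1, where 42.6% of 35116 promoter windows of that length held it. The TNFRSF1A window held CCAAT, present in 32.0% of windows, and none of the other motifs. None of the 3 windows held TATAA, found in 18.9% of windows. A match describes the letters of the window alone. Of the 10 members 6 matched the promoter table, the others being TNFRSF12A, TNFRSF10A, TNFRSF10B and CASP10.

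The lines differed most in TNFRSF10A, TNFRSF10B and TNFRSF25, and least in CFLAR, CASP8 and FADD. The tables were normalized separately and CPM was set across them without a test, so the levels are a description. Among control arms (EV or NT), TNFRSF10B, the TRAIL receptor DR5, averaged 101.3 ± 18.6 CPM in RCH (SD, n = 3), 70.7 ± 10.8 in Reh (n = 2), 41.0 ± 2.44 in SEM, 3.80 ± 0.229 in RS411 and 0.342 ± 0.0520 in 697, a span of 296 between the highest and the lowest. No neighbours in that order overlapped. TNFRSF10A, the other death-inducing TRAIL receptor, had another order: 14.7 ± 1.14 CPM in 697, 12.5 ± 0.622 in Reh, 8.90 ± 1.36 in RCH, 0.894 ± 0.0143 in SEM and 0.0281 ± 0.0487 in RS411, again with no overlap between neighbours. Thus 697 carried TNFRSF10A with almost no TNFRSF10B, RS411 had little of either, SEM had mainly TNFRSF10B, and RCH and Reh had both.

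TNFRSF1A was higher in RCH (42.6 ± 5.59 CPM) and Reh (40.1 ± 0.743), which overlapped, than in 697 (29.03 ± 1.67), and lowest in SEM (12.8 ± 2.01) and RS411 (12.6 ± 0.961), which also overlapped. TNFRSF25 was low throughout, at 2.31 ± 0.886 CPM in RCH and 1.78 ± 0.0120 in Reh, which overlapped, then 1.07 ± 0.0968 in RS411, 0.323 ± 0.142 in 697 and 0.0471 ± 0.0437 in SEM. In SEM it drew 0 to 4 reads per library in all arms. TNFRSF12A was highest in SEM at 2.42 ± 0.428 CPM, followed by Reh (1.65) and 697 (1.38), which overlapped, RS411 (0.789) and RCH (0.338). FAS, the receptor for FAS ligand, lay between 0.957 CPM (SEM) and 2.36 CPM (RCH), and only RS411 and SEM separated among its neighbours.

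Downstream of the receptors, the control levels of CFLAR, CASP8 and FADD spanned less than those of any receptor, and those of CASP10 did not. CFLAR spanned 1.35-fold, from 29.6 CPM in RCH to 40.0 in Reh, and FADD 1.61-fold, from 24.1 in Reh to 38.9 in SEM, with every neighbouring pair overlapping. CASP8 spanned 1.48-fold, from 33.8 CPM in RCH to 49.9 in SEM. CASP10 spanned 3.29-fold, above FAS at 2.47-fold and near TNFRSF1A at 3.38-fold, from 7.63 CPM in 697 through 13.5 in SEM, 17.9 in RS411 and 18.5 in RCH to 25.1 in Reh.

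Per kilobase of exon, the scale on which genes can be set beside each other, RCH controls held 24.4 CPM per kb of TNFRSF10B, 14.3 of TNFRSF1A, 3.28 of TNFRSF10A, 1.40 of TNFRSF25, 0.915 of FAS and 0.243 of TNFRSF12A. In 697 controls the highest receptor was TNFRSF1A at 9.75 CPM per kb, then TNFRSF10A at 5.43, and TNFRSF10B was the lowest at 0.0826. In every line CASP8 exceeded CASP10 on this scale, with 12.7 against 2.02 CPM per kb in SEM controls and 9.96 against 3.75 in Reh controls. Exon lengths are unions of the exons in the basic set of the annotation, so genes with many alternative exons, CFLAR above all, read low on this scale.

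**Figure D1:**
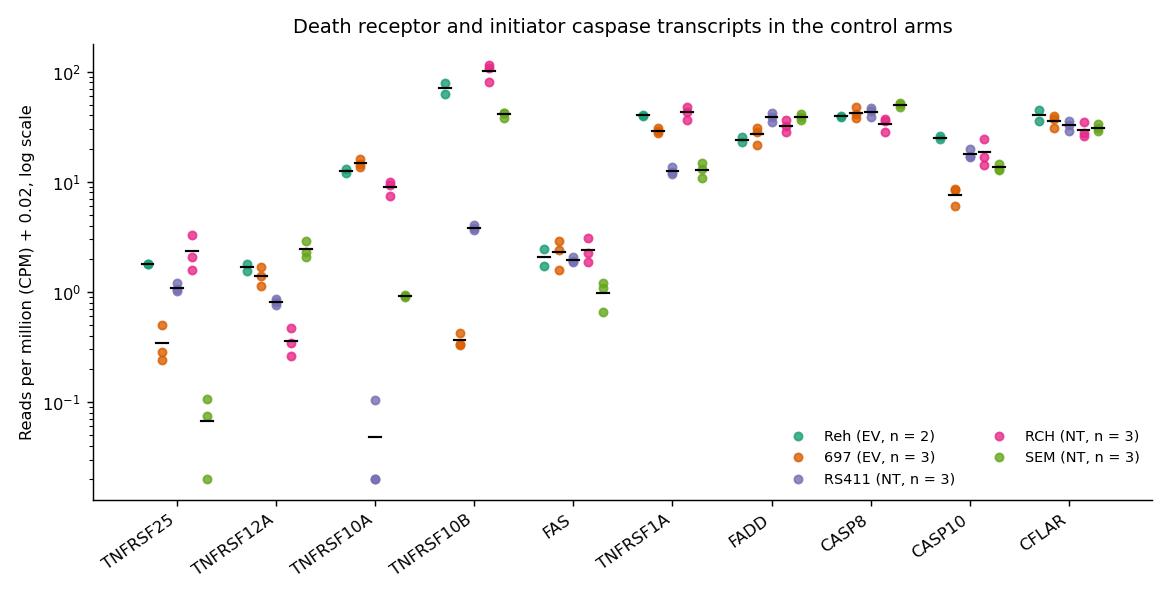
Control-arm level (EV or NT) of each gene in each line, in CPM on a log axis, plotted with 0.02 CPM added so that libraries at 0 can be drawn; points are libraries (2 in Reh, 3 in the others) and short lines their mean. TNFRSF10B spreads 296-fold between RCH and 697, while CFLAR spreads 1.35-fold.

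With NSD2 overexpressed, none of the 10 members passed the test in either line, fitted without the replicate number as a block. The background was small: in Reh 0.219% of genes were called in WT versus EV, 0.213% in EK versus EV and 0% in EK versus WT, where edgeR called 0 members in each. In 697, limma called 0.19% of genes in WT versus EV, 0.172% in EK versus EV and 0% in EK versus WT, and again 0 members. At an unadjusted p under 0.05 there was 1 member in each Reh contrast with EV, 0 in EK versus WT, and 0 in each 697 contrast. Over all genes, in the order WT, EK and EK versus WT, 793, 982 and 260 of 15972 stood there in Reh. In 697 there were 468, 796 and 118 of 16310. DESeq2 also called 0 members in the 3 Reh contrasts, and edgeR on the recovered 697 reads called 0 in the 3 of that line. WT and EK share the EV libraries in both lines.

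The Reh member with an unadjusted p under 0.05 in WT was TNFRSF25. Its level was 1.79 and 1.77 CPM in the EV libraries, 1.203 and 0.718 in WT, and 0.896 and 1.43 in EK. All 4 NSD2 libraries thus lay below both EV libraries. The log2 fold change was -0.90 ± 0.36 for WT (adjusted p = 0.96, edgeR) and -0.59 ± 0.35 for EK, at 17 to 48 reads per library. In EK it was TNFRSF10B, at 63.1 and 78.4 CPM in EV, 83.3 and 84.7 in WT and 85.2 and 92.5 in EK, with no overlap between EV and EK. The EK difference was 0.35 ± 0.12 (adjusted p = 0.628, edgeR). It passed when the replicate number was a block (adjusted p = 0.0143), which rests on 2 pairs. CASP10 lay at 26.0 and 24.2 CPM in EV, 21.1 and 20.9 in WT and 19.7 and 21.6 in EK, below the EV libraries in all 4, and did not pass (-0.28 ± 0.12 and -0.26 ± 0.12). With 2 libraries per arm, 3 members stood all higher and 2 all lower in WT versus EV, and 3 and 3 in EK versus EV. The share of all genes separated in this way was not counted, so these orders are a description.

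In 697 the groups of all 10 members overlapped in WT versus EV and in EK versus EV. The share of all genes that overlapped was not counted, so this is a description. The fitted folds of the members ran from 0.815 to 1.21 in WT and from 0.915 to 1.39 in EK. The lowest adjusted p was 1 in WT and 0.986 in EK (limma). The median log2 fold change of the members was 0.03 in WT and -0.02 in EK, beside 0.00 and -0.02 over all genes tested. In Reh it was 0.01 in both, beside -0.01 and 0.01 over all genes.

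**Figure D2:**
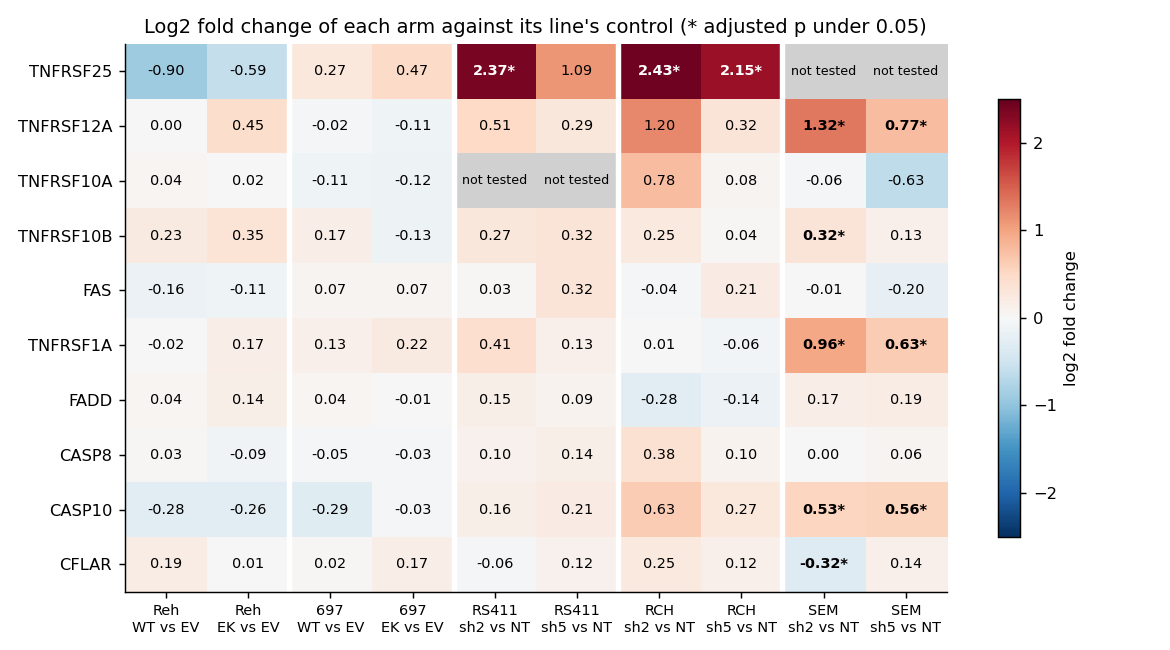
Log2 fold change of each member (rows) in each arm against the control of its line (columns), printed in the cell, with an asterisk where the adjusted p is under 0.05 and grey cells where the gene was not tested. No asterisk stands in the Reh or 697 columns, and 6 of the 10 genes carry at least 1 in the hairpin columns.

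With NSD2 knocked down, TNFRSF25 rose in RS411 and RCH and showed the largest change of any member. In RS411 it lay at 0.993, 1.18 and 1.04 CPM in NT, 6.68, 7.19 and 2.56 in sh2, and 2.20, 2.96 and 1.63 in sh5. The arms did not overlap with NT, and the sh2 replicate 3 library was the lowest of its arm and also the one with the most NSD2 left (247.8 CPM against 153.1 and 158.7). In RCH it lay at 2.06, 1.57 and 3.29 CPM in NT, 16.0, 11.5 and 11.0 in sh2, and 12.8, 9.69 and 9.19 in sh5. Every RCH hairpin library stood above every NT library.

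TNFRSF25 was the 1 member called in RS411 with sh2, where 1.67% of genes were called, at 2.37 ± 0.37 on the log2 scale or 5.17-fold (adjusted p = 0.0192, edgeR). With sh5, 0.478% of genes and 0 members were called, and 0 members by DESeq2. At an unadjusted p under 0.05 stood 1 member, beside 1932 of 17165 genes. The TNFRSF25 difference there was 1.09 ± 0.37 (adjusted p = 0.297), and 1.102 with an adjusted p of 0.0213 when the replicate number was a block. Directly between the hairpins 0.577% of genes and 0 members were called. There 2 members had an unadjusted p under 0.05, beside 2196 of 17165 genes. DESeq2 called TNFRSF25 (adjusted p = 0.0129). Its difference sh5 minus sh2 was -1.28 ± 0.34 (adjusted p = 0.141, and 0.00311 with the block). In a bulk sample fewer cells with a transcript and less of it per cell cannot be told apart. The RS411 sh2 call was lost without any of the 3 NT libraries or without sh2 replicate 1 or 2, with TNFRSF25 adjusted p between 0.0513 and 0.0954, and was kept without sh2 replicate 3 (2.71, adjusted p = 3.21e-05).

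TNFRSF25 was also the 1 member called in RCH with sh2, where 1.37% of genes were called, at 2.43 ± 0.29 or 5.39-fold (adjusted p = 0.00591, edgeR). With sh5, where 0.0229% of genes were called, it was again the 1 member, at 2.15 ± 0.28 or 4.45-fold (adjusted p = 0.0468). Between the hairpins in RCH 0% of genes and 0 members were called. At an unadjusted p under 0.05 stood 1 member, TNFRSF10A, beside 1714 of 17468 genes. DESeq2 called TNFRSF10A (adjusted p = 0.0298). For TNFRSF25 sh5 minus sh2 was -0.28 ± 0.27 (adjusted p = 0.694, edgeR). The sh5 call of TNFRSF25 was lost when any 1 of the 6 NT and sh5 libraries was left out (adjusted p from 0.0801 to 0.302), while the sh2 call held in all 12 alternatives. Markers of other cell types also differed between these RCH libraries. The sum of collagen and other stromal markers was 2.63 to 6.12 CPM in RCH NT, 8.78 to 26.8 in sh2 and 1.90 to 12.9 in sh5, highest in sh2 replicate 1, where 4 of the 6 markers reached 1 CPM. Without that library TNFRSF25 was at 2.22 with sh2 (adjusted p = 0.0119). The sum of 8 T and NK markers was 7.87 to 11.77 CPM in RCH NT, 11.81 to 14.3 in sh2 and 10.1 to 10.6 in sh5, nearly all of it NKG7. Of those markers CD3D, CD3E and CD2 were at 0 in all 9 RCH libraries, while CD5 averaged 0.044 CPM in NT and 0.697 in sh2. The sum of 8 myeloid markers was 18.9 to 25.6 CPM in RCH NT, 11.9 to 17.7 in sh2 and 17.99 to 27.4 in sh5, with CSF1R at means of 20.7, 10.3 and 19.3, MPO at 0.716, 2.36 and 1.49, and S100A8 at 0. The part of the myeloid and NK markers in the RCH values of TNFRSF25 was not tested. In RS411 the stromal sum was 1.21 to 4.57 CPM in all libraries except sh5 replicate 1, at 21.3 CPM, and COL1A1 was the marker at 1 CPM or more in every other library of both lines. Their part in the RS411 sh5 values was not tested.

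Among 20225 genes, those that followed TNFRSF25 most closely over the 27 libraries of the 3 knockdown lines, after centring log2 CPM within each line, were COL8A2, a short-chain collagen (Pearson r = 0.97), FUT1, a fucosyltransferase (0.948), MMP14, a membrane matrix metalloproteinase (0.916), TESC, tescalcin (0.912), and the noncoding LINC00899 (0.883). The libraries share their arms and their depth with TNFRSF25, so these values describe likeness only. TNFRSF25 drew 0 to 4 reads per SEM library, so the likeness rests mainly on RS411 and RCH. COL8A2 went from 0.191 to 3.75 CPM in RS411 with sh2 (log2 fold change 4.31 ± 0.33, adjusted p = 0.000284, edgeR) and from 6.34 to 35.9 CPM in RCH (2.46, adjusted p = 0.00516). ESPN, whose span overlaps TNFRSF25, was at 3.59 CPM in RCH NT and 2.73 in sh2, a difference of -0.45 ± 0.37 (adjusted p = 0.534). HES2, the nearest gene below, was at -0.10 ± 0.30 there (adjusted p = 0.884). PLEKHG5, the nearest above, went from 3.52 to 7.93 CPM (1.12 ± 0.37, adjusted p = 0.162). In RS411 with sh2 PLEKHG5 went from 2.17 to 4.01 CPM (0.88 ± 0.64, adjusted p = 0.509, edgeR).

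**Figure D3:**
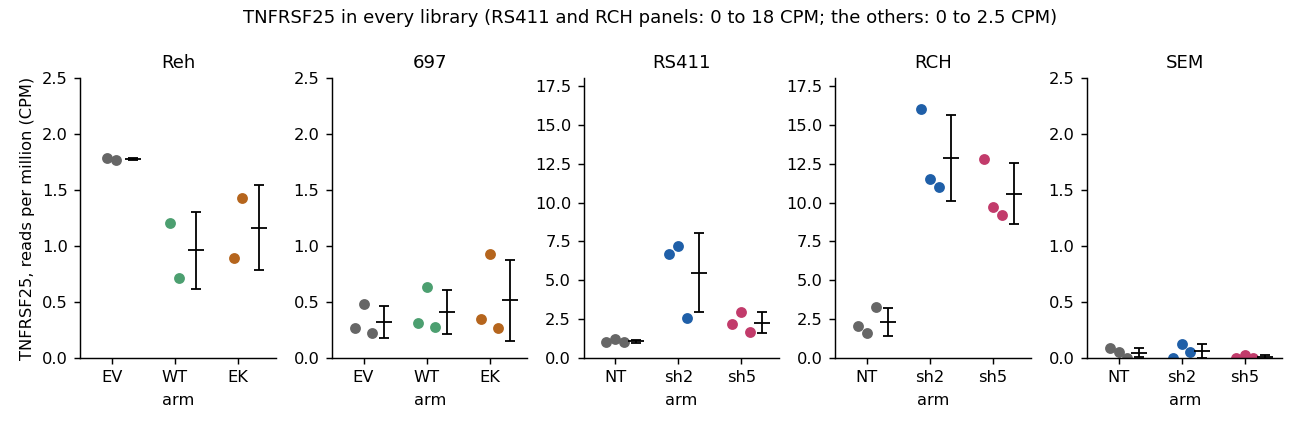
TNFRSF25 in CPM in every library (points), with the mean and SD of each arm, for the 5 lines on the axes named in the title. In RS411 and RCH the hairpin libraries stand above the NT libraries, while in SEM the gene was at most 4 reads per library.

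SEM was the line in which most members moved, and also the line in which most genes did. With sh2, 27.9% of the genes tested were called and 5 of the 10 members were, 4 of them higher (TNFRSF12A, TNFRSF10B, TNFRSF1A and CASP10) and CFLAR lower. With sh5, 21.3% of genes were called and 3 members were, all higher (TNFRSF12A, TNFRSF1A and CASP10). Between the hairpins 12.4% of genes were called and 1 member was, CFLAR. TNFRSF25 was not tested in SEM for want of reads. Both hairpins are compared with the same NT libraries, and the values are given side by side. The median log2 fold change of the 9 tested members was 0.17 with sh2 and 0.13 with sh5, beside 0.01 and -0.01 over all genes.

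Of the receptors, TNFRSF1A lay at 10.7, 13.2 and 14.7 CPM in SEM NT, 23.8, 27.4 and 22.9 in sh2, and 17.8, 21.3 and 19.8 in sh5. The 3 arms were fully separate, with sh2 the highest. It rose 1.95-fold with sh2 (0.96 ± 0.12, adjusted p = 1.52e-05) and 1.54-fold with sh5 (0.63 ± 0.12, adjusted p = 0.00125, edgeR). The difference sh5 minus sh2 was -0.34 ± 0.11 and did not pass in the main fit (adjusted p = 0.0689, edgeR). It passed with the replicate block (0.00567), and also by DESeq2, with no low-count filter and with the 2 arms alone.

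TNFRSF12A lay at 2.30, 2.89 and 2.06 CPM in SEM NT, 7.56, 5.92 and 4.32 in sh2, and 4.09, 4.73 and 3.45 in sh5. All hairpin libraries were above all NT libraries, and sh2 overlapped with sh5. The rise was 2.5-fold with sh2 (1.32 ± 0.21, adjusted p = 0.000204) and 1.71-fold with sh5 (0.77 ± 0.21, adjusted p = 0.0164, edgeR). The sh5 call of TNFRSF12A was lost without NT replicate 3 (adjusted p = 0.0689) or without sh5 replicate 2 (0.0799). Between hairpins the difference was -0.55, with an adjusted p of 0.0927, or 0.00918 with the block.

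TNFRSF10B lay at 38.2, 42.3 and 42.5 CPM in SEM NT, 51.8, 47.4 and 52.6 in sh2, and 46.1, 43.8 and 43.6 in sh5. Both hairpin arms lay above NT, though sh5 by little. It rose 1.25-fold with sh2 (0.32 ± 0.06, adjusted p = 0.0012, edgeR) and did not pass with sh5 (0.13 ± 0.06, adjusted p = 0.172). Between the hairpins it was at -0.20 (adjusted p = 0.0582), and passed with the block (0.0154) and by DESeq2 (0.0388). RHOBTB2, which shares part of its span, also rose with sh2, from 18.4 to 29.2 CPM (0.68 ± 0.10, adjusted p = 9.31e-05), and stood at -0.05 with sh5. The library kit marks strand, but the sources used here do not give the counting setting, and reads of overlapping genes counted without strand cannot be told apart.

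TNFRSF10A and FAS passed in no comparison. TNFRSF10A in SEM was at 0.891, 0.881 and 0.909 CPM in NT and lower in sh5, at 0.663, 0.608 and 0.447, a difference of -0.63 ± 0.29 that did not pass (adjusted p = 0.152). In RCH it was at 10.0, 7.39 and 9.29 CPM in NT, 17.6, 15.1 and 14.5 in sh2, and 9.85, 8.59 and 10.2 in sh5. The sh2 libraries stood above all others, at 0.78 ± 0.18 against NT (adjusted p = 0.0659, edgeR), and TNFRSF10A was called there by DESeq2 (adjusted p = 0.00207). RS411 gave it 0 to 7 reads per library. FAS ranged from 0.633 to 3.41 CPM over all libraries of the 5 lines.

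Of the signalling genes, CASP10 lay at 14.5, 12.9 and 13.1 CPM in SEM NT, 18.4, 18.9 and 20.2 in sh2, and 19.5, 19.4 and 20.4 in sh5. Both hairpin arms stood clear of NT and overlapped with each other. CASP10 rose 1.44-fold with sh2 (0.53 ± 0.08, adjusted p = 0.000204) and 1.48-fold with sh5 (0.56 ± 0.08, adjusted p = 0.000187, edgeR). CASP8, its neighbour on the chromosome, was at 49.9 ± 2.23 CPM in NT, 49.1 ± 3.20 in sh2 and 51.6 ± 3.91 in sh5, with overlap, and passed in no line. FADD stood at 38.8, 41.3 and 36.4 CPM in NT, 39.1, 44.5 and 45.3 in sh2, and 41.7, 43.9 and 46.2 in sh5. Its differences were 0.17 ± 0.07 (adjusted p = 0.114) and 0.19 ± 0.07 (adjusted p = 0.0823), and with the block they passed for both hairpins (0.0384 and 0.0201, edgeR).

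CFLAR was the 1 member that fell, and the 1 called between the hairpins in the main edgeR fit. With the block 4 were called between them, the others being TNFRSF12A, TNFRSF10B and TNFRSF1A, and DESeq2 called 3. More of all genes were called with the block as well. CFLAR lay at 29.1, 30.6 and 33.3 CPM in SEM NT, 24.6, 22.96 and 25.9 in sh2, and 35.7, 32.8 and 32.9 in sh5. The sh2 libraries were below all others, and sh5 overlapped with NT. CFLAR fell to 0.802 of its NT level with sh2 (-0.32 ± 0.07, adjusted p = 0.0038), was at 0.14 ± 0.07 with sh5 (adjusted p = 0.208), and was 1.37-fold higher in sh5 than in sh2 (0.45 ± 0.07, adjusted p = 0.00052, edgeR). The sh2 fall and the hairpin difference each held in all 12 alternatives. NSD2 was also lower in SEM sh5 than in sh2 (-0.29, adjusted p = 0.00425).

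CFLAR, CASP10 and CASP8 lie next to each other on chromosome 2 and their products meet in 1 complex, so their reads were also set against each other. The CASP10 reads per CFLAR read were 0.499, 0.420 and 0.394 in SEM NT, 0.747, 0.825 and 0.779 in sh2, and 0.546, 0.591 and 0.621 in sh5. The CASP8 reads per CFLAR read were 1.74, 1.55 and 1.55 in NT, 2.12, 2.00 and 1.90 in sh2, and 1.57, 1.49 and 1.51 in sh5. Both SEM ratios were highest in sh2, and the first also separated sh5 from NT. In RCH the CASP10 ratio was 0.699, 0.648 and 0.509 in NT, 0.777, 0.785 and 0.884 in sh2, and 0.776, 0.586 and 0.693 in sh5. In RS411 the sh2 values of that ratio overlapped with NT. None of these ratios was tested.

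Markers of another lineage moved in SEM beside these genes. The sum of 8 myeloid markers was 14.5 to 21.5 CPM in NT, 34.8 to 49.9 in sh2 and 44.0 to 56.6 in sh5, carried mostly by CSF1R (means of 16.2, 40.0 and 43.6 CPM). Of the 8 markers 2 or 3 reached 1 CPM, and ELANE and FCGR3A were at 0. The summed B-lineage markers went from 1435 to 1549 CPM in NT to 1267 to 1312 in sh2 and 1272 to 1304 in sh5. The part of either in the results on SEM members was not tested.

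**Figure D4:**
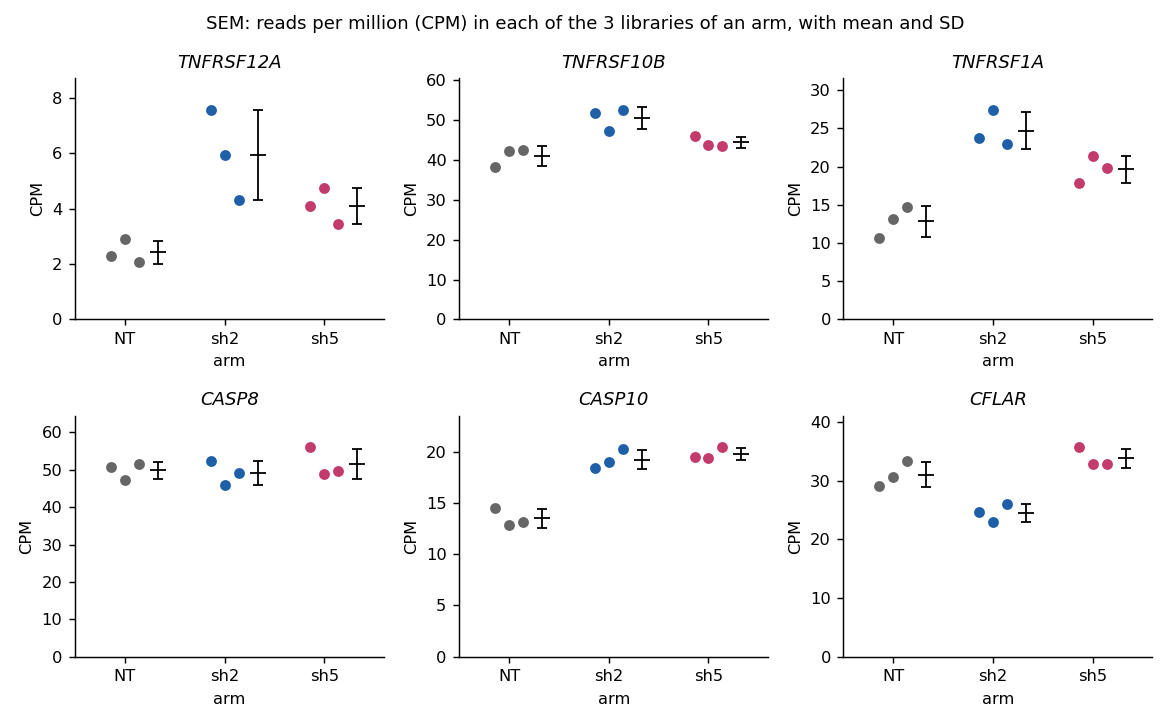
SEM levels in CPM of 6 members in each of the 3 libraries of the NT, sh2 and sh5 arms (points), with the mean and SD; each axis starts at 0. TNFRSF12A, TNFRSF1A and CASP10 stand above NT with both hairpins, CFLAR is lowest in sh2, and CASP8 overlaps throughout.

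The same members were less clear in RS411 and RCH. TNFRSF1A in RS411 was at 11.8, 13.7 and 12.3 CPM in NT and 18.9, 15.9 and 14.5 in sh2, above every NT library, at 0.41 ± 0.12 (adjusted p = 0.101, and 0.0206 with the block). In RCH it was at 0.01 ± 0.14 with sh2. CASP10 in RCH was at 24.4, 16.9 and 14.2 CPM in NT and 30.7, 27.9 and 30.1 in sh2, again above every NT library, at 0.63 ± 0.24 (adjusted p = 0.202). TNFRSF12A in RCH was at 0.239, 0.321 and 0.455 CPM in NT and 1.28, 0.728 and 0.453 in sh2, with overlap, and the difference of 1.203 ± 0.54 did not pass (adjusted p = 0.261, edgeR). TNFRSF1A in RS411 was also called by DESeq2 (adjusted p = 0.0382), with no low-count filter (0.0252) and without sh2 replicate 3 (0.028), and CASP10 in RCH with no low-count filter (0.0358). CASP8 in RCH was at 35.6, 37.1 and 28.5 CPM in NT and 53.7, 45.7 and 36.8 in sh2, with overlap (0.38 ± 0.18, adjusted p = 0.274). CFLAR, which fell in SEM with sh2, had the other sign in RCH. It averaged 29.6 CPM in RCH NT and 36.4 in sh2, with overlap, and did not pass (0.25 ± 0.17, adjusted p = 0.439). In RS411 CFLAR was at -0.06 ± 0.11 with sh2 (adjusted p = 0.821, edgeR).

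All 3 knockdown lines were then fitted together. For the mean response to sh2, 15% of genes were called and 5 members were, all higher: TNFRSF25 (1.70 ± 0.44, adjusted p = 0.00839), TNFRSF12A (1.02 ± 0.21, adjusted p = 0.00121), TNFRSF10B (0.29 ± 0.08, adjusted p = 0.00985), TNFRSF1A (0.48 ± 0.08, adjusted p = 0.000116) and CASP10 (0.45 ± 0.10, adjusted p = 0.0035, edgeR). The TNFRSF25 mean includes SEM with its 0 to 4 reads per library and was lost without SEM sh2 replicate 2 (adjusted p = 0.177). For the mean response to sh5, 5.11% of genes were called and CASP10 was the 1 member (0.36 ± 0.10, adjusted p = 0.0439). With the replicate block CASP8 was also called for the sh2 mean (0.17, adjusted p = 0.00739, from 0.104) and TNFRSF1A for the sh5 mean (0.24, adjusted p = 0.0251, from 0.0749). The sh5 mean call of CASP10 was lost in 13 of 18 fits that each left out 1 library, with adjusted p up to 0.0973: each RS411 NT and each SEM sh5 replicate, RS411 sh5 replicates 1 and 2, RCH NT replicates 2 and 3, RCH sh5 replicate 1, and SEM NT replicates 2 and 3.

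The response to sh2 differed between the lines for 7.93% of genes and for 1 member, TNFRSF1A (adjusted p = 0.00895, edgeR, 2 degrees of freedom). Its log2 fold change was 0.41 in RS411, 0.01 in RCH and 0.96 in SEM. For CFLAR, FADD and CASP8 the line difference did not pass (adjusted p of 0.114, 0.0722 and 0.256) and did with the replicate block (0.00177, 0.0232 and 0.0267). For sh5 the responses differed for 1.75% of genes and for 0 members. At an unadjusted p under 0.05 were 3 members, beside 2010 of 20225 genes. The lowest adjusted p was 0.17, and 0.0485 with the block (edgeR), both for TNFRSF1A. For TNFRSF25 the line difference did not pass (adjusted p of 0.466 for sh2 and 0.274 for sh5). With no low-count filter it passed for sh5 (0.00809, edgeR). At 0 to 4 reads per SEM library, this test cannot decide whether SEM responds like the other lines. For CASP10 the line difference did not pass (0.412 and 0.899). Both genes were called in some lines and not in others.

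**Figure D5:**
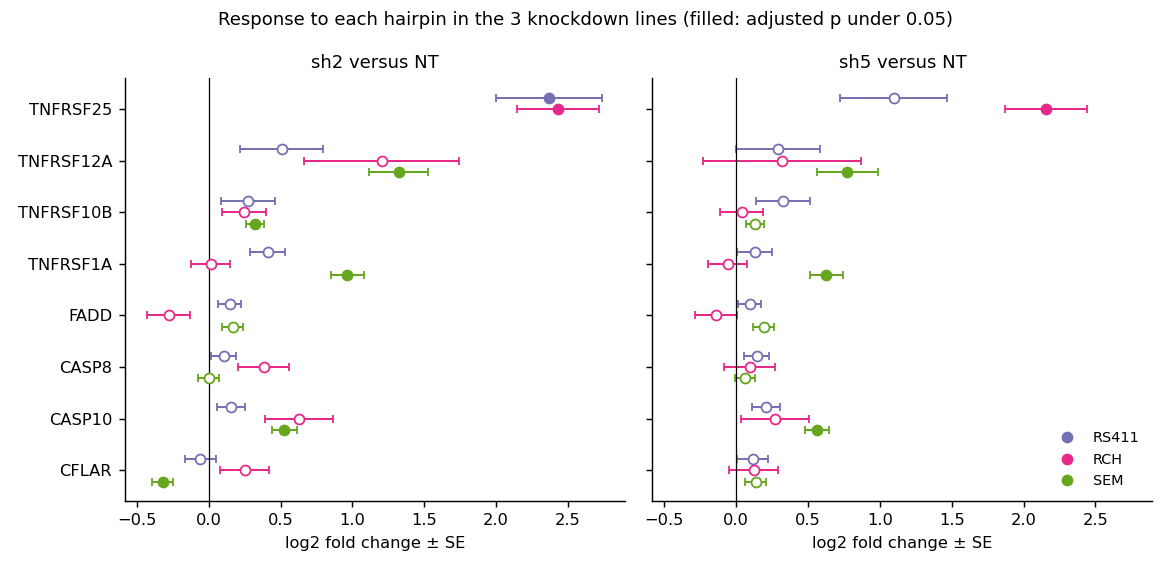
Log2 fold change with its SE (x axis) of 8 members (y axis) for sh2 and for sh5 against NT in RS411, RCH and SEM, filled where the adjusted p is under 0.05. TNFRSF25 is farthest to the right in RS411 and RCH, and TNFRSF1A ranges from 0.01 in RCH to 0.96 in SEM with sh2.

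Other genes of the pathway, 47 in a list of ligands, decoy receptors, adaptors and kinases, ubiquitin enzymes and inhibitors of apoptosis, and downstream effectors, were read in the same fits. None was called in Reh, 697 or RS411, where between 0 and 10 per comparison had an unadjusted p under 0.05 (edgeR, limma for 697). In RS411 these were 10 of 40 tested with sh2 and 9 with sh5, beside 3124 and 1932 of 17165 genes. In Reh they were 2 of 40 in WT and in EK versus EV, beside 793 and 982 of 15972 genes. In 697 they were 1 and 2 of 38, beside 468 and 796 of 16310 genes. In RCH with sh2, 1 of 42 tested was called, BIRC3, an inhibitor of apoptosis and NF-kB target, from 4.72 to 21.3 CPM (2.13 ± 0.40, adjusted p = 0.037). In SEM with sh2, 10 of 37 tested rose and 3 fell, and with sh5 8 rose and 2 fell, against the 27.9% and 21.3% of all genes called there.

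Among the receptors of that list in SEM, TNFRSF1B, the second TNF receptor, rose with sh2 (0.56, adjusted p = 1.59e-06), while TNFRSF21, known as DR6, fell from 13.4 to 2.85 CPM (-2.20 ± 0.19, adjusted p = 8.7e-07, edgeR). Of 14 adaptors and kinases tested with sh2 5 rose and none fell, beside 27.9% of all genes called. The 5 were TRAF5, TRAF3 (0.58), the necroptosis kinases RIPK1 (0.32) and RIPK3 (1.104), and MLKL (0.73), the effector of that route. Of 9 ubiquitin enzymes and inhibitors 2 rose and 1 fell: the deubiquitinase CYLD rose (0.65, adjusted p = 2.27e-06) and TNFAIP3, known as A20, fell from 13.1 to 6.31 CPM (-1.04 ± 0.14, adjusted p = 5.31e-05). Of 9 downstream genes BID (0.17) and APAF1 (0.44) rose and CASP6 fell (-0.38). With sh5, TNFRSF21 (-1.07) and TNFAIP3 (-1.22) fell too. The adaptors and kinases that rose with sh5 were TRAF2 (0.45), TRAF3 (0.46) and MLKL (0.40), while RIPK1 (0.19, adjusted p = 0.0971), RIPK3 (0.35, adjusted p = 0.337) and TRAF5 (-0.03, adjusted p = 0.856) did not pass. Directly between hairpins TNFRSF21 was higher in sh5 and TNFRSF1B, TRAF5, RIPK3, MLKL and CYLD were lower.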

How the data were processed

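The submitters' processing notes name Trimmomatic for trimming, STAR for alignment, the build hg19 and featureCounts for assigning reads; the versions and the strand setting were not given in the sources used here. Libraries were stranded total RNA depleted of ribosomal RNA, per the labels' protocols. The raw counts that the authors deposited served for Reh and the 3 knockdown lines. For 697 the authors deposited a normalized signal, which is reads divided by 1 factor per library and gave back whole reads for 100% of values (tolerance 0.001 reads). The 3 columns of a Reh replicate 3 match none of the samples and were left aside. In each knockdown line 27 names turned into dates were dropped, with 0.214% to 0.247% of the reads.

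The count tests used edgeR 4.0.16 under R 4.3.3 (quasi-likelihood, TMM, filterByExpr, robust), fitting the 3 arms of a line together. For 697, limma 3.58.1 (trend) was run on log2(normalized count + 1), keeping genes whose mean was 10 or more. A joint edgeR model took the 27 knockdown libraries and 20225 genes. Benjamini-Hochberg adjustment was made within each comparison. The fits were tested on simulated data. Exon lengths are from the basic set of GENCODE v29, promoters and neighbouring genes from RefSeq on GRCh38.p14, and no coordinates were moved to hg19. Genes named for likeness to TNFRSF25 were the 5 highest by Pearson r. Alternatives were DESeq2 1.42.0, no filter, a filter of 1 CPM, 2 arms alone, other pseudocounts, the replicate number as a block, and each library left out. The block applied to recovered 697 reads was chosen after seeing the data.

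The members and lists were chosen with earlier results of these data known. Same-numbered libraries deviated together in 697 (lowest correlation of deviations 0.514), RS411 (0.335), SEM (0.204) and RCH sh5 with NT (0.348). Blocked values stand beside those member results there whose call changed with the block. The member calls against NT in SEM, and that of TNFRSF25 in RCH with sh5, were kept with it. No member was called with it in 697. In RCH sh2 with NT the pairs did not all deviate together (0.205, 0.413 and 0.00525). In Reh they did (0.718 to 0.766), but Reh has 2 pairs, and the deviations of 2 replicates mirror each other.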

Additional observations from a re-analysis of the deposited data

Results flagged for a closer look

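The response of TNFRSF1A to sh2 differed between RS411, RCH and SEM by the 2-degree-of-freedom test of the line difference itself (adjusted p = 0.00895, edgeR). The log2 fold changes were 0.41 ± 0.12, 0.01 ± 0.14 and 0.96 ± 0.12 in that order, with 3 of 3 sh2 libraries above every NT library in RS411 and in SEM. The call held in all 21 alternatives run, with an adjusted p between 0.00109 and 0.0303. The control level of TNFRSF1A also differs between these lines, at 12.6, 42.6 and 12.8 CPM in the same order. The estimated lowering of NSD2 was largest in SEM, but its own line difference with sh2 did not pass (adjusted p = 0.682, edgeR). The part of the control level or of NSD2 in the TNFRSF1A difference was not tested.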

How the results depend on the processing

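No called member reversed direction under an alternative run here. Of the values of single genes under the alternatives 2477 kept their side of the threshold, 44 gained a call and 29 lost it. Direction was compared only where at least 1 of the 2 fits called the gene, and tests of a line difference have none. With the replicate block the members called were 1 in Reh EK versus EV (TNFRSF10B, adjusted p = 0.0143, from 2 pairs), 2 in RS411 sh2, 1 in RS411 sh5 and 1 in sh5 versus sh2, 3 in RCH sh2, where the pairing check failed, 4 in SEM sh5 versus sh2, and, over the lines, 2 for the sh5 mean, 4 for the sh2 difference and 1 for the sh5 difference. The block changed no other call count by over 1.5 times. DESeq2 called 2 members in RS411 sh2, 1 in RS411 sh5 versus sh2, 2 in RCH sh2, 1 in RCH sh5 versus sh2 and 3 in SEM sh5 versus sh2. Without a low-count filter the counts were 2, 1 and 1 in the RS411 contrasts (sh2, sh5, sh5 versus sh2), 3 in RCH sh2, 3 in SEM sh5 versus sh2 and 1 for the sh5 difference. A filter of 1 CPM gave 0 in RCH sh5 and 2 in SEM sh5 versus sh2, and the 2 arms alone 0 and 3. Over all genes, in the order WT, EK and EK versus WT in Reh, edgeR called 35, 34 and 0 and DESeq2 139, 210 and 2. In the order sh2, sh5 and sh5 versus sh2, the counts were 286, 82 and 99 against 950, 314 and 422 in RS411 and 239, 4 and 0 against 1077, 91 and 197 in RCH; with the block they were 2495, 929 and 1555 in RS411 and 6455, 5591 and 3532 in SEM, from 4760, 3623 and 2105. Wherever totals over all genes are given here, they rose with DESeq2 and with the block. No totals are given for the other settings. Members gained under an alternative are therefore not read as a result about the members. The cause of these differences was not tested. Leaving out 1 library gave 0 to 2 members in RS411 sh2, 0 to 1 in RS411 sh5 versus sh2, 0 to 0 in RCH sh5, 1 to 2 in SEM sh5 versus sh2, 0 to 2 for the sh5 mean, 1 to 3 for the sh2 difference and 0 to 1 for the sh5 difference. Calls gained this way were TNFRSF1A in RS411 sh2, TNFRSF25 between RS411 hairpins and TNFRSF12A between SEM hairpins (each without sh2 replicate 3 of its line), FADD in SEM sh2 (without sh2 replicate 1), and over the lines FADD and CFLAR (without RCH NT replicate 1), CASP8 (without RCH sh2 replicate 3) and TNFRSF1A with sh5 (without RCH sh5 replicate 1 or 2 or SEM NT replicate 3). Depth limits TNFRSF25 in SEM and TNFRSF10A in RS411, each at 7 reads or fewer per library.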
